A study of Chlamydomonas reinhardtii with 6 samples.

Results

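The 8 genes described here encode the soluble electron carriers of photosynthesis and nuclear-encoded parts of the complexes on either side of them in the unicellular green alga Chlamydomonas reinhardtii. They were chosen by gene identifier, not by any measured value, and all 8 were found among the 17736 gene models of the deposited table. In the order used below they are PETF (Cre14.g626700.v5.5), PCY1 (Cre03.g182551.v5.5), CYC6 (Cre16.g651050.v5.5), FNR1 (Cre11.g476750.v5.5), PETC (Cre11.g467689.v5.5), ATPC (Cre06.g259900.v5.5), ATPD (Cre11.g467569.v5.5) and ATPG (Cre11.g481450.v5.5). The table and the gene reference carry identifiers without names, so the names are those given with the list of identifiers and were not checked against a sequence. RNA sequencing compared wild type cells (WT) with a knockout of CMD1 (cmd1 KO), each with 3 biological replicates and both labelled as strain CC125. CMD1 is a relative of the TET dioxygenases, and the question was how its loss altered gene expression. All cells had been grown at 25 °C in acetate medium at 20 µmol photons per m2 per s, and were then transferred to high salt medium under 300 µE of light. The labels do not say how the knockout was made, whether it is 1 clone or how long the light treatment lasted, and the level of CMD1 itself was not analysed here.

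In the thylakoid membrane the cytochrome b6f complex passes electrons to a soluble carrier in the lumen, which brings them to photosystem I. Plastocyanin, a copper protein, is the usual carrier, and in this alga cytochrome c6, a haem protein, takes its place when copper is scarce. On the stromal side photosystem I reduces ferredoxin, and ferredoxin-NADP+ reductase uses reduced ferredoxin to make NADPH. The proton gradient built up along this chain drives the chloroplast ATP synthase, whose subunits are encoded partly in the chloroplast and partly in the nucleus.

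The 8 genes lie on 5 chromosomes in the v5.5 assembly, 4 of them on chromosome 11. PETF spans chr14:2717256-2718504, PCY1 chr3:5197561-5198678, CYC6 chr16:1238558-1240109 and ATPC chr6:1525413-1528648. On chromosome 11, ATPD spans chr11:337493-339583, PETC chr11:1181185-1184519, FNR1 chr11:2688429-2692590 and ATPG chr11:3536403-3537655. None overlaps another gene model of the reference. The smallest gap to a neighbour is 16 bases, beside PETC. The gene lengths used for FPKM (fragments per unit of gene length and of library size) ran from 828 bases for PCY1 to 2688 for PETC.

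The libraries held 38875025 to 47869886 counts, and 10878 genes were tested, those averaging 1 FPKM or more. All 8 genes passed that filter. CYC6 did so with a mean of 1.51 FPKM that fell to 0.646 FPKM without WT replicate 3, so it entered through that library. Replicate 3 of each genotype stood apart from its replicates 1 and 2. Replicates 1 and 2 of WT and those of cmd1 KO were not alike either. Across genes, the correlation of log2 CPM (counts scaled to a common total) of WT replicate 3 was 0.955 with cmd1 KO replicate 3, as against 0.791 with WT replicate 1. WT replicate 1 was at 0.809 with cmd1 KO replicate 1, near its 0.791 with WT replicate 3. The lowest correlation of any 2 libraries, 0.675, was between cmd1 KO replicate 2 and WT replicate 3. Counts were also more concentrated in cmd1 KO replicates 1 and 2. The 50 genes with the most WT counts, PCY1 among them, took 61.1% and 60.4% of the counts there, 34.9% in cmd1 KO replicate 3, and 42.9%, 44.7% and 30.4% in WT replicates 1, 2 and 3. Values are given under 2 scalings, which gave opposite signs for 5 of the 8 genes within replicates 1 and 2 and for 4 over all 6 libraries. FPKM and library-size scaling express a gene as a share of all counts. TMM (trimmed mean of M-values) scaling sets a gene against the typical gene. Going from TMM to library sizes alone moved the median log2 ratio of cmd1 KO to WT over all tested genes from -0.06 to -1.40 in pair 1, from -0.09 to -1.48 in pair 2 and from -0.01 to -0.32 in pair 3, where a pair is the WT and cmd1 KO library of the same number. Neither scaling can tell a smaller share from less RNA per cell.

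In FPKM the summed level of the 8 transcripts varied little between libraries. PCY1 alone made up 45.1% to 67.4% of it, so the sum does not describe each gene. Across libraries ATPC ran from 52.6 to 349 FPKM and PETC from 759 to 956 FPKM. The sum was 11506, 11008 and 11552 FPKM in WT replicates 1, 2 and 3, and 10892, 11291 and 11507 FPKM in the cmd1 KO libraries in the same order, with overlap between genotypes. In TMM-scaled CPM, which is not divided by length, the sum was 10284, 9673 and 8002 in WT replicates 1, 2 and 3. It was 22818, 24995 and 10232 in the cmd1 KO libraries in the same order, with overlap between genotypes. By FPKM the 8 genes fell into 5 tiers. PCY1 came first in WT, at 6287 ± 219 FPKM (SD, n = 3), and PETF second, at 2089 ± 236 FPKM. ATPD at 876 ± 167 FPKM, PETC at 863 ± 98.9 FPKM and ATPG at 790 ± 117 FPKM followed, with values that overlapped between libraries. Within each WT library PETC was above ATPG. FNR1 at 230 ± 41.5 FPKM and ATPC at 218 ± 69.9 FPKM overlapped likewise. Differences between genes within a tier were not tested. CYC6 was last, at 2.63 ± 2.81 FPKM. The tiers came in the same order in cmd1 KO, where PCY1 stood at 6700 ± 1315 FPKM (SD, n = 3), PETF at 1744 ± 283 FPKM and CYC6 at 0.396 ± 0.256 FPKM.

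**Figure D1:**
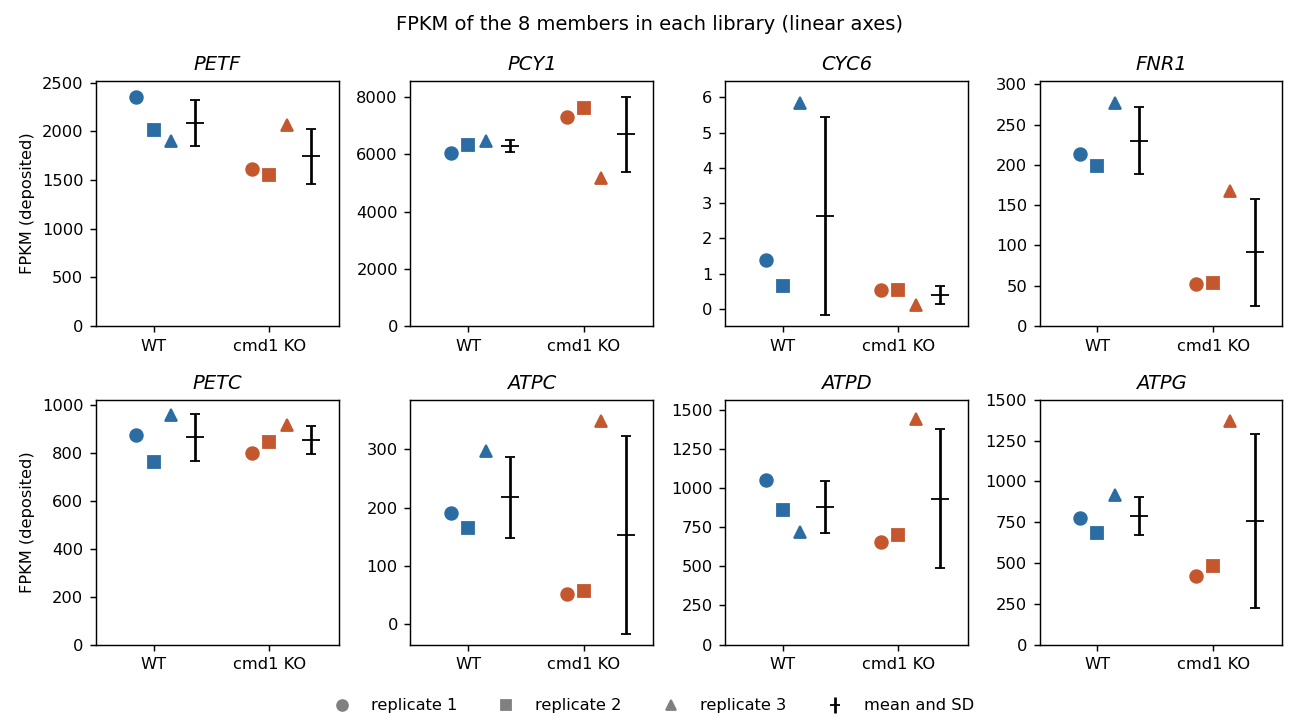
FPKM (deposited values, linear axes that differ between panels) of each of the 8 genes in the 3 WT and 3 cmd1 KO libraries, with a symbol per replicate number and the mean and SD beside each group. FNR1 is lower in all cmd1 KO libraries, and ATPC and ATPG are low in cmd1 KO replicates 1 and 2 and high in cmd1 KO replicate 3.

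PCY1 encodes plastocyanin, the copper carrier between cytochrome b6f and photosystem I. It stood at 6050, 6325 and 6484 FPKM in WT replicates 1, 2 and 3, and at 7301, 7607 and 5191 FPKM in cmd1 KO replicates 1, 2 and 3. The first 2 cmd1 KO libraries lay above all WT libraries and the third below them. PCY1 rose in cmd1 KO within replicates 1 and 2, by 1.64 on the log2 scale with TMM (SE 0.11, adjusted p = 1.40e-14, edgeR) and by 0.25 with library sizes alone (SE 0.10, adjusted p = 0.0189, edgeR). None of the other 7 genes was called higher in cmd1 KO under both scalings in these 4 libraries. Here and below, tests within replicates 1 and 2 measure only the spread between 2 alike libraries per genotype. Replicates 1 and 2 correlated at 0.988 in WT and at 0.981 in cmd1 KO, in log2 CPM across genes. The spread that edgeR fitted with TMM (biological coefficient of variation) was 0.13 for these 4 libraries and 0.56 over all 6.

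CYC6, for cytochrome c6, had the lowest level of the 8 genes in every library. Its counts were 64, 28 and 235 in WT replicates 1, 2 and 3, and 27, 22 and 4 in cmd1 KO replicates 1, 2 and 3. WT replicate 3 was far above the rest and cmd1 KO replicate 3 below them. The 95% exact Poisson intervals, which cover counting error only, were 206 to 267 for the former and 1.09 to 10.2 for the latter. In WT the CYC6 transcript was at 0.000228, 0.000104 and 0.000903 of the PCY1 level in FPKM. The log2 difference of CYC6 within replicates 1 and 2 was 0.45 with TMM (SE 0.50, adjusted p = 0.418, edgeR) and -0.93 with library sizes alone (SE 0.49, adjusted p = 0.0846, edgeR).

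PETF encodes ferredoxin, the stromal iron-sulfur protein reduced by photosystem I. Its level was 2353, 2014 and 1899 FPKM in WT replicates 1, 2 and 3, and 1616, 1549 and 2068 FPKM in cmd1 KO replicates 1, 2 and 3. The genotypes overlapped through cmd1 KO replicate 3, which lay above 2 of the WT libraries. The call for PETF within replicates 1 and 2 turned with the scaling, with a rise in cmd1 KO of 0.91 on the log2 scale with TMM (SE 0.12, adjusted p = 5.09e-08, edgeR) and a log2 difference of -0.48 with library sizes alone (SE 0.11, adjusted p = 0.000585, edgeR).

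FNR1 encodes ferredoxin-NADP+ reductase, the flavoprotein that takes electrons from ferredoxin to NADP+. It stood at 214, 199 and 277 FPKM in WT replicates 1, 2 and 3, and at 52.4, 53.5 and 168 FPKM in cmd1 KO replicates 1, 2 and 3. The highest cmd1 KO value was below the lowest WT value, and the same held for TMM-scaled CPM, at 434, 409 and 433 in WT against 270, 290 and 324 in cmd1 KO. Such a lack of overlap on the low side was shared by 13.6% of all tested genes with TMM and by 29.7% with library sizes alone. FNR1 fell within replicates 1 and 2, at a log2 difference of -0.59 with TMM (SE 0.14, adjusted p = 0.000229, edgeR) and of -1.98 with library sizes alone (SE 0.13, adjusted p = 2.98e-11, edgeR). Over all 6 libraries the log2 difference was -0.53 with TMM (SE 0.28, adjusted p = 0.341, edgeR), which did not pass.

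PETC encodes the Rieske iron-sulfur protein of the cytochrome b6f complex, which takes electrons from plastoquinol. It kept a narrow range, at 874, 759 and 956 FPKM in WT replicates 1, 2 and 3, and at 799, 845 and 915 FPKM in cmd1 KO replicates 1, 2 and 3. All cmd1 KO values lay between the lowest and the highest WT value. Within replicates 1 and 2 the log2 difference was 0.00 with library sizes alone (SE 0.11, adjusted p = 0.972, edgeR) and 1.38 with TMM (SE 0.12, adjusted p = 5.17e-12, edgeR).

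ATPC encodes the gamma subunit, the rotating shaft of the catalytic head of the ATP synthase. It was at 191, 166 and 297 FPKM in WT replicates 1, 2 and 3, and at 52.6, 57.9 and 349 FPKM in cmd1 KO replicates 1, 2 and 3. The first 2 cmd1 KO libraries lay below every WT library, and the third above all of them. ATPC fell within replicates 1 and 2, at a log2 difference of -0.32 with TMM (SE 0.14, adjusted p = 0.0422, edgeR) and of -1.70 with library sizes alone (SE 0.14, adjusted p = 6.26e-10, edgeR). The TMM call was a narrow one. It was lost in the fit that pairs the replicate numbers (adjusted p = 0.0685, edgeR), with RLE size factors (0.147), in DESeq2 (0.134), with no filter on low genes (0.302), without WT replicate 1 (0.142), without cmd1 KO replicate 1 (0.369) and without cmd1 KO replicate 2 (0.0638).

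ATPD encodes the delta subunit, part of the stalk that holds the catalytic head still, and ATPG encodes subunit II, a membrane-anchored part of the same peripheral stalk. ATPD was at 1049.5, 861 and 717 FPKM in WT replicates 1, 2 and 3, and at 652, 698 and 1442 FPKM in cmd1 KO replicates 1, 2 and 3. ATPG was at 774, 682 and 915 FPKM in WT and at 419, 480 and 1374 FPKM in cmd1 KO in the same order. In FPKM both genes were lowest in cmd1 KO replicates 1 and 2 and highest in cmd1 KO replicate 3. With TMM scaling all 3 cmd1 KO libraries lay above all WT libraries for both genes, as they did for 9.43% of tested genes. ATPD and ATPG rose within replicates 1 and 2 by 0.87 (SE 0.13) and 0.68 (SE 0.13) on the log2 scale with TMM, with adjusted p-values of 2.80e-07 and 2.85e-05 in edgeR. With library sizes alone the log2 differences were -0.52 and -0.71, with adjusted p-values of 0.000592 and 2.75e-05 in edgeR.

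Of the 8 genes, 7 passed an adjusted p of 0.05 within replicates 1 and 2 with TMM, 5 of them higher and 2 lower in cmd1 KO. Over all 10878 genes 72.2% passed, 34.3% higher and 37.8% lower, so passing was common. The median log2 difference was 0.77 over the 8 genes and -0.07 over all tested genes. With library sizes alone 6 of the 8 passed, 1 higher and 5 lower, against 85.4% of all genes, 6.24% higher and 79.2% lower. The medians were then -0.61 and -1.46. Both scalings placed the 8 genes' median above that of all genes. Abundant and short genes as a whole lay on the same side. Tested genes were split into 5 equal classes by mean WT FPKM. The highest class, which holds all of the 8 except CYC6, stood at a median log2 ratio of 0.54 in pair 1 and 0.74 in pair 2 with TMM. Of 5 equal classes by length, the shortest, with 241 to 1536 bases, holds PETF, PCY1, CYC6, ATPD and ATPG and had 0.87 and 1.09. The middle class by length, which holds FNR1 and PETC at 2629 and 2688 bases, had -0.04 and -0.07. With library sizes alone, the highest FPKM class had -0.80 and -0.67 in pairs 1 and 2, and the shortest class -0.47 and -0.31. The part of level and length in the values of the 8 genes was not tested.

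**Figure D2:**
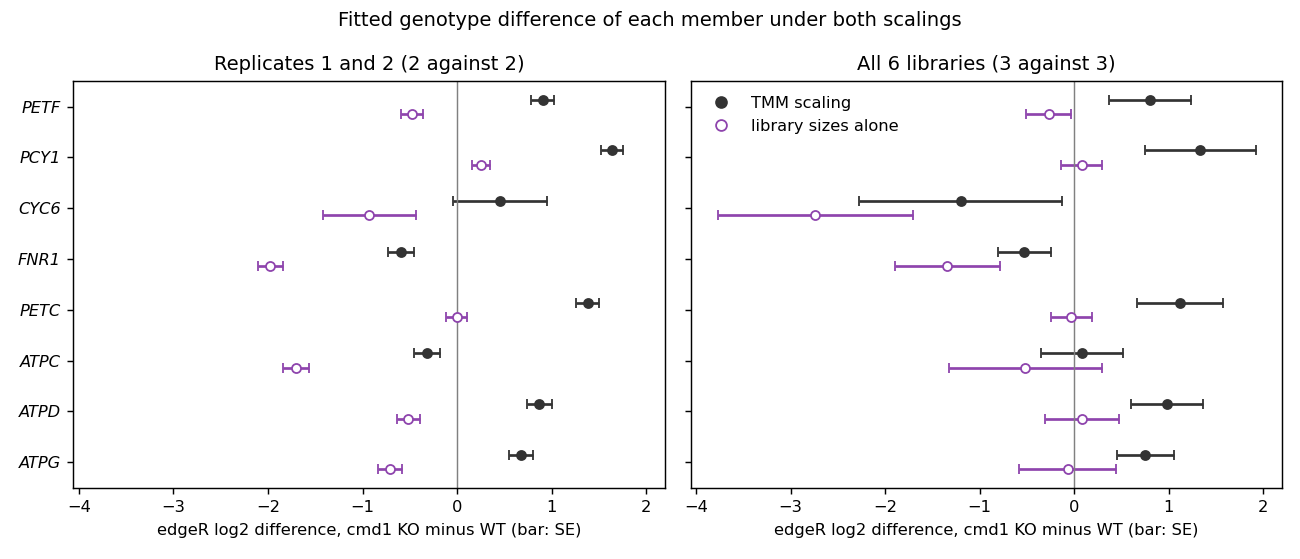
Fitted log2 difference of cmd1 KO minus WT for each gene within replicates 1 and 2 (left) and over all 6 libraries (right), with TMM (filled) and with library sizes alone (open), and bars for the SE. In the left panel FNR1 and ATPC lie below 0 and PCY1 above 0 under both scalings, whereas PETF, CYC6, ATPD and ATPG change side and PETC sits at 0 with library sizes alone.

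Over all 6 libraries none of the 8 genes passed an adjusted p of 0.05 in edgeR, nor did any tested gene (0% called). At an unadjusted p under 0.05 there were 3 of the 8 with TMM against 17.9% of all genes. These were PETC, at a log2 difference of 1.12 (SE 0.45, adjusted p = 0.275, edgeR), ATPD, at 0.98 (SE 0.38, adjusted p = 0.266, edgeR), and ATPG, at 0.75 (SE 0.30, adjusted p = 0.275, edgeR). DESeq2 called 1 of the 8, ATPG, at a log2 difference of 0.84 (SE 0.26, adjusted p = 0.0351, DESeq2), against 6.32% of all genes. cmd1 KO replicate 3 decided the count. Without it edgeR called 6 of the 8, 5 higher and 1 lower, against 38.9% of all genes, 18.1% higher and 20.7% lower, and CYC6 and ATPC were the ones not called. In the authors' deposited table, 2 of the 8 had an unadjusted p under 0.05, FNR1 at a log2 fold change of -1.55 (p = 0.00155) and ATPC at -1.07 (p = 0.0409). Such a p was listed for 52.9% of all genes in the authors' deposited table, and the median log2 fold change was -1.22. The authors' deposited table gave PCY1, PETC and ATPD log2 fold changes of 0.07, -0.01 and -0.01.

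The genotype difference in replicate 3 was unlike that in replicates 1 and 2 for 3 of the 7 genes other than CYC6, by edgeR's test of the interaction with TMM, against 50.7% of all genes. CYC6 is left out of this count, since it entered the test through WT replicate 3, 1 of the libraries the test compares. Replicate 3 has 1 library per genotype, so the spread in this test comes from the other 4 libraries. The log2 ratio of PCY1 was 1.62 and 1.67 in pairs 1 and 2 and -0.02 in pair 3, a change of -1.66 (SE 0.20, adjusted p = 2.20e-07, edgeR). That of PETC was 1.22, 1.56 and 0.24 in pairs 1, 2 and 3, a change of -1.15 (SE 0.21, adjusted p = 9.39e-05, edgeR), which with library sizes alone was -0.07 (adjusted p = 0.762, edgeR). CYC6 had ratios of 0.01, 1.08 and -5.21, given as values only. ATPC moved the other way, with ratios of -0.51, -0.11 and 0.54 and a change of 0.85 (SE 0.25, adjusted p = 0.00589, edgeR). With library sizes alone 6 of those 7 genes passed, all except PETC, against 64.6% of all genes. FNR1, ATPD and ATPG then passed as well, with changes of 1.25, 1.51 and 1.29, and PETF turned from -0.48 to 0.59.

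**Figure D3:**
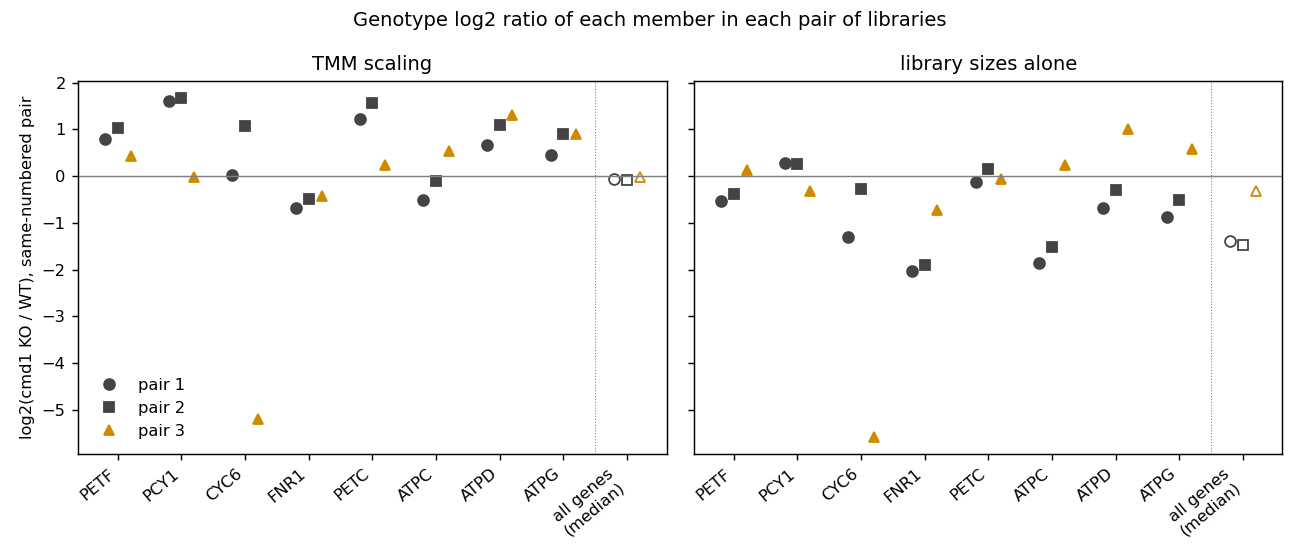
Log2 ratio of cmd1 KO to WT for each gene in each same-numbered pair of libraries, with TMM scaling (left) and library sizes alone (right), and the median of all tested genes as open symbols at the right of each panel. FNR1 lies below 0 in all 3 pairs under both scalings, and CYC6 in pair 3 lies below -5. Lying below 0 in all 3 pairs was shared by 28.7% of tested genes with TMM and by 67.5% with library sizes alone.

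Ratios between genes within a library do not depend on how libraries are scaled, and 5 were compared. With 3 libraries against 3, the smallest exact two-sided p is 0.1. The PETF transcript stood at 11.01, 10.1 and 6.85 times the FNR1 level in FPKM in WT replicates 1, 2 and 3, and at 30.8, 29.0 and 12.3 times in cmd1 KO replicates 1, 2 and 3. Every cmd1 KO library lay above every WT library. On the log2 scale with 1 FPKM added, the PETF to FNR1 ratio averaged 3.19 ± 0.36 (SD, n = 3) for WT and 4.45 ± 0.73 for cmd1 KO, which differ by 1.27 (exact permutation test, p = 0.1, adjusted over the 5 ratios 0.25). It was higher in cmd1 KO in all 3 pairs. PETF has 1035 bases and FNR1 2629, and cmd1 KO to WT log2 ratios of tested genes differed by length class. Genes of the shortest class, which holds PETF, lay at a TMM median of 0.87, 1.09 and 0.18 in pairs 1, 2 and 3. Those of the middle class, which holds FNR1, lay at -0.04, -0.07 and -0.05. The PETF to FNR1 ratio differed by 1.48 within replicates 1 and 2 and by 0.84 in pair 3. The part of gene length in the 5 ratios was not tested.

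The ATP synthase genes did not keep a constant proportion. ATPC was at 0.246, 0.243 and 0.325 of the ATPG level in FPKM in WT replicates 1, 2 and 3, and at 0.126, 0.121 and 0.254 in cmd1 KO. It was at 0.182, 0.193 and 0.414 of the ATPD level in WT and at 0.0806, 0.0830 and 0.242 in cmd1 KO. In both ratios cmd1 KO replicates 1 and 2 lay below every WT library, cmd1 KO replicate 3 lay among them, and all 3 pairs were lower in cmd1 KO. The log2 differences were -0.77 for ATPC over ATPG and -1.04 for ATPC over ATPD (exact permutation tests, p = 0.3 and adjusted 0.375 for each). Without cmd1 KO replicate 3 the difference for ATPC over ATPD was -1.56, and without WT replicate 3 it was -0.66.

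The plastocyanin to Rieske ratio showed no genotype difference beyond the spread. PCY1 was at 6.92, 8.33 and 6.78 times the PETC level in FPKM in WT replicates 1, 2 and 3, and at 9.13, 8.999 and 5.68 times in cmd1 KO. The log2 difference was 0.08 (exact permutation test, p = 0.8, adjusted 0.8), beside SDs of 0.39 in cmd1 KO and 0.16 in WT. CYC6 over PCY1 was lower in every cmd1 KO library, with a log2 difference of -1.20 (exact permutation test, p = 0.1, adjusted 0.25). The size of that difference rests on the 1 FPKM added, since CYC6 was under 1 FPKM in all cmd1 KO libraries, and it was -2.19 with 0.1 FPKM added. It also rests on WT replicate 3, without which it was -0.62 with 1 FPKM added. CYC6 passed the filter on low genes through that same library, so the test of this ratio is no support.

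**Figure D4:**
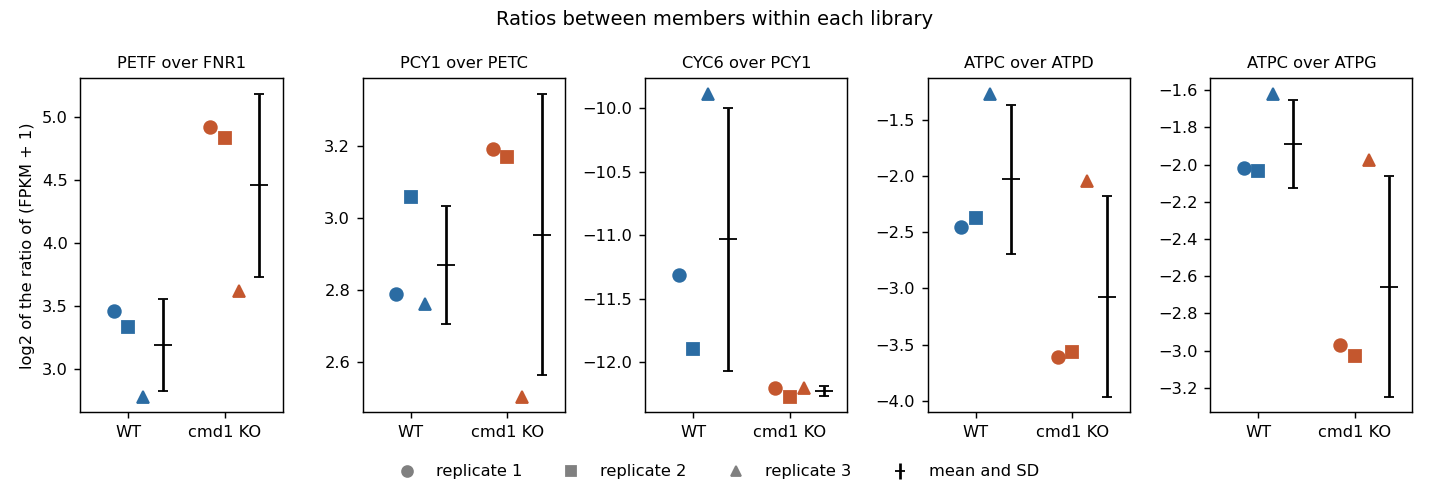
Log2 of the ratio of (FPKM + 1) between 2 genes in the same library, for the 5 ratios compared, with a symbol per replicate number, the mean and SD beside each group, and an axis of its own for each panel. The cmd1 KO libraries lie above all WT libraries for PETF over FNR1, and the groups overlap for PCY1 over PETC, ATPC over ATPD and ATPC over ATPG.

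Over the 6 libraries, the mean profile of the 8 genes in TMM-scaled log2 CPM was followed most closely by Cre17.g728200, on chromosome 17 from 3853354 to 3856729, at r = 0.997, and by Cre02.g115900, on chromosome 2 from 6441914 to 6444437, at r = 0.996. Among the 8 themselves the correlation with that mean, of which each is a part, was 0.935 for PCY1, 0.928 for PETC, 0.861 for PETF, 0.596 for ATPD, 0.485 for CYC6, 0.412 for ATPG, -0.65 for FNR1 and -0.73 for ATPC. The 6 points fall into sets of alike libraries and share the scaling, so these values are descriptions only.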

How the data were processed

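Gene expression was measured in 6 RNA-seq libraries, 3 WT and 3 cmd1 KO, grouped and numbered by their titles. Per the labels' protocols, Trizol was used for RNA extraction and a stranded total RNA kit for the libraries. FastQC 0.11.5, Cufflinks 2.0.0 and TopHat2 are named in the submitters' processing notes. No source used here states the counting tool, strand setting or genome build. Counts were deposited as raw reads per gene, per the file headers. The FPKM columns deposited beside them equalled count over a fixed gene length and the column total. The deposited log2 fold changes, log2 CPM, F score and p-value are the authors' own comparison, whose model no header states. Whether replicates came from separate cultures is not stated beyond the word biological, so p-values measure the spread between these libraries.

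edgeR 4.0.16 (glmQLFit and glmQLFTest, two-sided, TMM) was fitted in R 4.3.3 to the 10878 genes averaging 1 FPKM or more, and p-values were adjusted by Benjamini-Hochberg over all of them. Genotype was tested over all 6 libraries, within replicates 1 and 2, and as an interaction with replicate 3. DESeq2 1.42.0 (280 genes kept an NA adjusted p over all 6 libraries), limma 3.58.1, other scalings, no filter, a replicate block and leaving out each library were alternatives. Pair ratios were taken on log2 CPM, prior count 1. For ratios between genes, exact permutation tests were run with scipy 1.17.1. The fits were also run on simulated data with large changes planted in some genes and no general shift of replicate 3. No result here rests on that run.

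Of 17736 identifiers, 17733 matched the RefSeq v5.5 gene table by locus tag, with 0 symbols other than locus tags. The other genes of the chain that were foreseen had no names there and were therefore not analysed here. Protein relatives and promoter motifs, also foreseen, were not analysed because no protein, promoter or genome sequence was at hand. The named genes were the 8 listed, plus the 2 closest in profile. Genes, ratios and tests were chosen with earlier results of these data known. The labels list WT and cmd1 together by number. Deviations from each genotype's mean correlated between same-numbered libraries at 0.530, 0.427 and 0.547 for numbers 1, 2 and 3. With replicate 3 apart in both genotypes, this centring makes numbers 1 and 2 deviate together, so their values cannot show pairing. Numbers 1 and 2 were not told apart, as WT replicate 1 and cmd1 KO replicate 2 correlated at 0.491. WT replicate 2 and cmd1 KO replicate 1 were at 0.479, above the 0.427 of number 2. The number of unused columns of per-sample values was 0.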

Additional observations from a re-analysis of the deposited data

Results flagged for a closer look

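For 4 of the 8 genes the genotype difference in replicate 3 was unlike that of the other replicates, by edgeR's interaction test with TMM. Over all tested genes 50.7% passed the same test, so passing was common. The change in log2 ratio was -1.66 for PCY1, -5.97 for CYC6, -1.15 for PETC and 0.85 for ATPC. With library sizes alone these were -0.59, -4.91, -0.07 and 1.93, of which that of PETC no longer passed. Each rests on 1 replicate 3 library per genotype. CYC6 had 235 counts in WT replicate 3 against 4 in cmd1 KO replicate 3 and passed the filter on low genes through the former, so its call is no support. Groups of 3 libraries were too small for a test of single outlying libraries.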

How the results depend on the processing

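Over all 6 libraries edgeR called 0 genes and 0 of the 8, with 1952 genes at an unadjusted p under 0.05, and DESeq2 called 688 genes and 1 of the 8. Leaving out 1 library gave 0 to 4229 genes and 0 to 6 of the 8, the highest without cmd1 KO replicate 3. limma on log2(FPKM + 1) also called 0. Within replicates 1 and 2 the counts were 6708 to 7563 genes and 6 to 7 of the 8 when 1 library was left out, and library sizes alone turned 3736 higher and 4117 lower into 679 and 8610. In the interaction test library sizes alone called 7 of the 8 in place of 4, both counts including CYC6. Over all tested genes it called 64.6% in place of 50.7%.

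Pairing the replicate numbers (replicate block) gave 0 genes and 0 of the 8 over all 6 libraries, 7748 genes and 6 of the 8 within replicates 1 and 2, and 5387 genes and 4 of the 8 in the interaction, an alternative added after the data were seen. It ended the call of ATPC within replicates 1 and 2 and no other call of the 8. Paired exact tests of the 5 ratios gave p = 0.25 (4 ratios), the smallest that 3 pairs allow, and 0.75 for PCY1 over PETC. CYC6 over PCY1 is among the 4, and its test is no support, since CYC6 passed the filter through WT replicate 3.

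Signs turned as follows. Over all 6 libraries, library sizes alone gave log2 differences of -0.27 for PETF, -0.030 for PETC, -0.52 for ATPC and -0.072 for ATPG. limma with 1 FPKM added gave -0.27, -0.013, -1.04 and -0.27, and with 0.1 added -0.27, -0.013, -1.05 and -0.27. ATPC was also at -0.031 with the replicate block, and between -0.44 and 0.33 when 1 library was left out. Within replicates 1 and 2, library sizes alone gave -0.48 for PETF, -0.93 for CYC6, -0.0043 for PETC, -0.52 for ATPD and -0.71 for ATPG, and in the interaction 0.59 for PETF. PCY1 over PETC lay between -0.033 and 0.31 when 1 library was left out. The cause of these turns beyond the scaling itself was not tested. The depth limits only CYC6, at 4 to 235 counts.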
